A study of Mus musculus with 15 samples.

Results

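The cells described here are the arterial-type endothelial cells (ECs) of the mouse aorta, the ECs that carry Sema3g and Stmn2, and they made up 1660 of the 128019 cells that passed the filters and 1660 of 48087 ECs. They were chosen by their own counts of unique molecular identifiers (UMIs). A cell was kept with 200 to 7000 genes, at most 25% mitochondrial UMIs, at least 3 of the 6 endothelial genes Cdh5, Pecam1, Kdr, Egfl7, Cldn5 and Tie1, no UMI of Ptprc, Prox1 or Vwf, and at most 1 UMI in all of Col1a1, Lum and Pdgfra. It also had at least 3 of the 5 arterial genes Sema3g, Stmn2, Hey1, Sox17 and Alpl, and more of these than of the capillary genes Gpihbp1, Car4, Timp4, Tcf15 and Rgcc. Values of those genes are given only to describe the choice, with no test, and these genes are left out of every count of calls.

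The study asked how age and fisetin, a plant flavonoid taken as a senolytic (an agent that removes senescent cells), alter single cells of the aorta, and the 15 libraries were 10x 3′ single-cell RNA libraries from wildtype C57BL/6N mice of both sexes. The groups were young vehicle (Y VEH, 4 libraries, 355 arterial cells), young fisetin (Y FIS, 4 libraries, 448 cells), old vehicle (O VEH, 3 libraries, 375 cells) and old fisetin (O FIS, 4 libraries, 482 cells). Old mice were 27 months old, and young mice were 3 months old in the submitted design and 6 in the methods. Fisetin was given by gavage at 100 mg/kg per day for 1 week, withheld for 2 weeks and given for 1 more, and all mice, controls included, received the same gavage vehicle. Each library pooled 3 mice by its label, although the methods give 2 to 3 mice per pool, with 8 mice for the 3 O VEH and 10 for the 4 O FIS libraries, so a library is a pool and not an animal. The female (F) and male (M) libraries are numbered within each group. Perivascular fat was removed, the aorta was digested with enzymes, and viable cells were sorted before capture. Because cells were freed by digestion, fewer cells of a type and less efficient release of that type cannot be told apart.

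Arterial ECs line the vessels that carry blood away from the heart. Their identity is set by VEGF and Notch signalling, in which ligands such as Dll4, Jag1 and Jag2 act on Notch receptors of neighbouring cells and induce the transcription factors Hey1 and Hey2, with Sox17 acting upstream. Arterial cells are known for ephrin-B2, for connexins that couple them to each other and to smooth muscle, and for elastic fibre proteins, whereas capillary ECs are known for Gpihbp1 and for fatty acid uptake.

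Between 55 and 152 arterial cells came from a library, with a median of 116, and their summed counts ranged from 360377 to 875587 UMIs per library. The median arterial cell held 3738 to 6297 UMIs across libraries, against 2475 to 4476 for capillary ECs. Median mitochondrial percentages of the arterial cells spanned 2.34 to 6.36 in Y VEH, 3.13 to 6.99 in O VEH, 2.47 to 6.29 in Y FIS and 2.53 to 5.06 in O FIS, and so overlapped between groups. Any pair of libraries shared 8 to 51 cell barcodes, of which 1 in the whole series was an arterial cell in both. The doublet caller marked 10 of the 1660 cells. In the libraries Y FIS F2 and O VEH F1 it marked only 2 cells in each, so it may not have worked there, which was not tested.

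All 5 arterial markers were found in 749 of the arterial cells (45.1%), 4 in 640 (38.6%) and 3 in 271 (16.3%), and cells with more markers held more UMIs, with medians of 6038, 4417 and 3043. Sema3g, a secreted semaphorin, had a UMI in 91.9% of arterial cells and in 21.4% of capillary ECs, and Stmn2, a microtubule regulator best known from neurons, in 91.7% and 8.62%. Sox17 was found in 92.2%, Alpl, a phosphatase of arterial and arteriolar ECs, in 79.5%, and Hey1 in 73.6% of arterial cells. The capillary genes also had UMIs in arterial cells, which the rule allows up to a limit. Gpihbp1, which anchors lipoprotein lipase to the capillary wall, had a UMI in 83.9% of arterial cells, Rgcc in 71.1% and Tcf15 in 66.7%, while Car4 was found in only 5.96%, against 84.5% of capillary ECs. Free RNA in the droplets can give a UMI in a cell that does not express the gene, so the shares were read beside those of 15027 cells with Col1a1, Lum and Pdgfra and without Cdh5 or Ptprc, a set defined after seeing the data. In these fibroblast-marker cells, at a median of 11786 UMIs against 4856 in arterial cells, Gpihbp1 had a UMI in 13.5%, Rgcc in 14.5%, Tcf15 in 4.58%, Car4 in 4.03%, Sema3g in 0.898% and Stmn2 in 1.02%. Levels below are counts-per-million values (CPM), the UMIs of a gene relative to all UMIs of the cells concerned, computed per library.

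Genes outside the rule were compared between arterial cells and 3 other EC classes of the same libraries: 32095 capillary ECs, 4097 luminal-type ECs with Vwf and Cytl1, and 1603 venous-type ECs with Vwf and Plvap. These are descriptions, as the classes were cut from the same counts. Of a list of 25 arterial genes outside the rule, 21 were higher in arterial than in capillary cells in all 15 libraries and 1, Nrp1, was lower in all 15. Gja4, the gap junction protein connexin 37, stood at 195 ± 60.6 CPM (SD, n = 15 libraries) in arterial and 9.92 ± 3.75 CPM in capillary cells, a 19.7-fold difference. Vegfc, a growth factor best known for lymphatic vessels, was at 379 ± 106 against 15.8 ± 5.10 CPM. Edn1, which encodes the vasoconstrictor endothelin-1, was at 416 ± 91.7 against 33.2 ± 15.1 CPM. Nrp1, a co-receptor for VEGF and semaphorins, was at 703 ± 115 CPM in arterial and 1298 ± 189 CPM in capillary cells.

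Against the capillary cells, with 10 CPM added to each level, the highest ratios in arterial cells were those of Nebl (801 ± 202 against 29.8 ± 15.2 CPM), Vegfc, Col8a1 (638 ± 229 against 33.7 ± 12.8 CPM) and Fbln5 (813 ± 169 against 48.8 ± 13.9 CPM). Nebl encodes an actin-binding protein, Col8a1 a short-chain collagen of vessel walls, and Fbln5 fibulin-5, which is needed to assemble elastic fibres. Each was also higher than in luminal-type cells, in 15 of 15 libraries for Nebl, Vegfc and Col8a1 and in 14 of 15 for Fbln5.

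The luminal-type cells were the more extreme for part of the arterial list. Hey2, Bmx, Eln, Mgp and Clu were lower in arterial than in luminal-type cells in all 15 libraries, and 13 of the 25 genes were higher in all 15. Eln, which encodes elastin, was at 193 ± 55.6 CPM in arterial and 1167 ± 468 CPM in luminal-type cells. Mgp, matrix Gla protein, an inhibitor of calcification, was at 637 ± 408 and 5299 ± 876 CPM. In the other direction, Glul, glutamine synthetase, was at 512 ± 102 CPM in arterial cells and 105 ± 27.6 CPM in luminal-type cells. Against venous-type cells, 10 of the 25 genes were higher in all 15 libraries: Gja4, Efnb2, Jag1, Jag2, Unc5b, Cxcl12, Fbln5, Glul, Tm4sf1 and Crip1. Eln was lower than in venous-type cells in all 15.

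Among the Notch genes, Jag1 was at 179 ± 21.8 CPM in arterial and 25.7 ± 4.002 CPM in capillary cells, and Jag2 at 203 ± 28.7 and 80.1 ± 9.20 CPM, both higher in 15 of 15 libraries. Dll4 differed less, at 166 ± 41.2 and 117 ± 16.9 CPM, and was higher in 13 of 15. The receptor Notch1 was at 274 ± 29.4 and 195 ± 22.6 CPM. Hey2 was near the limit of detection, at 2.67 ± 2.40 CPM in arterial cells.

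Genes of the capillary list, fatty acid genes among them, marked the other side. Of 14 capillary markers outside the rule, 11 were lower in arterial than in capillary cells in all 15 libraries. Lpl, lipoprotein lipase, was at 239 ± 92.1 CPM in arterial and 1241 ± 309 CPM in capillary cells. Cd36, a fatty acid transporter, was at 3648 ± 515 and 5773 ± 562 CPM, so that arterial cells kept a sizeable level, above the 1089 ± 213 CPM of luminal-type cells. Aqp1, a water channel, was at 62.8 ± 56.2 CPM in arterial cells against 1823 ± 439 CPM in capillary, 1468 ± 295 CPM in luminal-type and 1595 ± 484 CPM in venous-type cells. Cxcl12, the chemokine that the study followed as a secreted senescence factor, was at 1911 ± 522 CPM in arterial, 1469 ± 320 CPM in capillary, 832 ± 310 CPM in venous-type and 167 ± 51.6 CPM in luminal-type cells, and was higher in arterial than in capillary cells in 14 of 15 libraries.

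**Figure D1:**
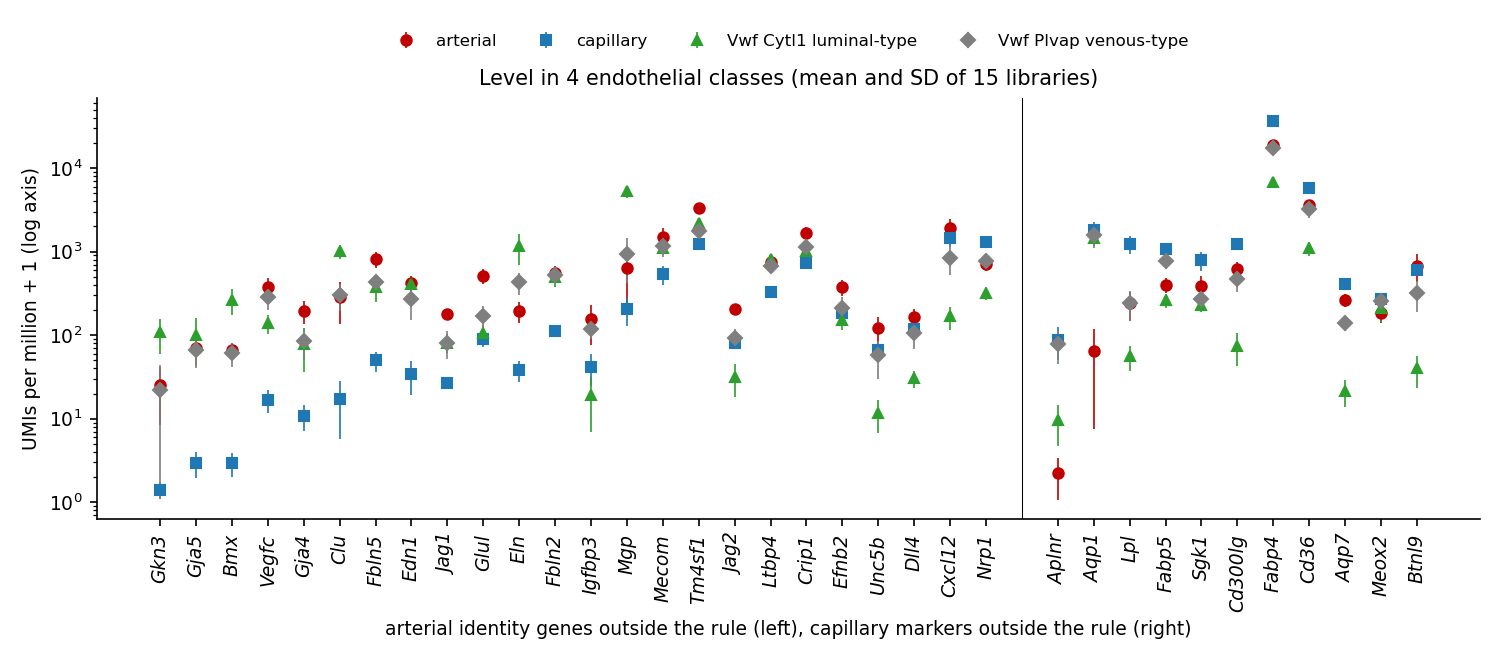
Mean level over the 15 libraries of genes of the arterial and capillary lists in the 4 EC classes, in CPM plus 1 on a log axis. Arterial genes under 10 CPM in arterial cells and capillary genes under 10 CPM in capillary cells are left out. Gja4, Vegfc and Edn1 stand above the capillary class in arterial cells, while Mgp, Eln and Clu are highest in the luminal-type class.

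Levels on both sides of the limit of the rule were read for a few genes outside it. Cells that met every other criterion with only 2 arterial markers held Gja4 at 133 CPM, and those with 3, 4 and 5 markers at 164, 174 and 211 CPM. Nebl was at 714 CPM just outside and 819 CPM just inside the limit, and Vegfc at 423 and 399 CPM. The levels of Cytl1, Mgp and Cxcl12 differed more across the limit. Cytl1 was at 255 CPM with 2 markers, 136 CPM with 3 and 11.8 CPM with 5, and Mgp at 2380, 1052 and 524 CPM, and Cxcl12 took the opposite course at 729, 1746 and 1969 CPM. The rule lets cells with more arterial markers hold more capillary markers, with means of 1.54, 2.40 and 3.18 for 3, 4 and 5 arterial markers. Such cells also held more UMIs. The levels across the limit are therefore not free of the rule and of depth, whose part was not tested.

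The share of arterial cells among ECs did not separate the groups. In Y VEH it was 6.34% (F1), 4.13% (F2), 2.38% (M1) and 3.18% (M2), a mean of 4.01 ± 1.71% (SD, n = 4). In Y FIS it was 2.38% (F1), 4.45% (F2), 2.70% (M1) and 3.43% (M2), a mean of 3.24 ± 0.916% (n = 4). In O VEH it was 4.58% (F1), 4.01% (F2) and 2.56% (M1), a mean of 3.72 ± 1.04% (n = 3). The groups overlapped, and the O VEH libraries all lay between the lowest and highest Y VEH libraries. In O FIS the share was 5.33% (F1), 2.75% (F2), 2.50% (M1) and 2.95% (M2), a mean of 3.38 ± 1.31% (n = 4).

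By two-sided exact permutation tests over libraries, O VEH differed from Y VEH by -0.290 percentage points (p = 0.857, smallest p possible 0.0571), O FIS from O VEH by -0.336 points (p = 0.686, smallest p possible 0.0571) and Y FIS from Y VEH by -0.770 points (p = 0.543, smallest p possible 0.0286). The first and second of these designs cannot reach 0.05. These tests carried no term for sex, and O VEH had more female than male libraries. In Y VEH and O VEH the female shares all lay above the male ones, and in Y FIS and O FIS they did not. Old libraries of both treatments differed from young ones by -0.0969 points (exact permutation p = 0.892). With each cell thinned to 3000 UMIs and shallower cells left out, the means were 5.16 ± 2.64% in Y VEH, 4.22 ± 0.880% in O VEH, 4.21 ± 1.30% in Y FIS and 4.12 ± 1.32% in O FIS. Intervals for single libraries are exact binomial and cover counting error only.

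**Figure D2:**
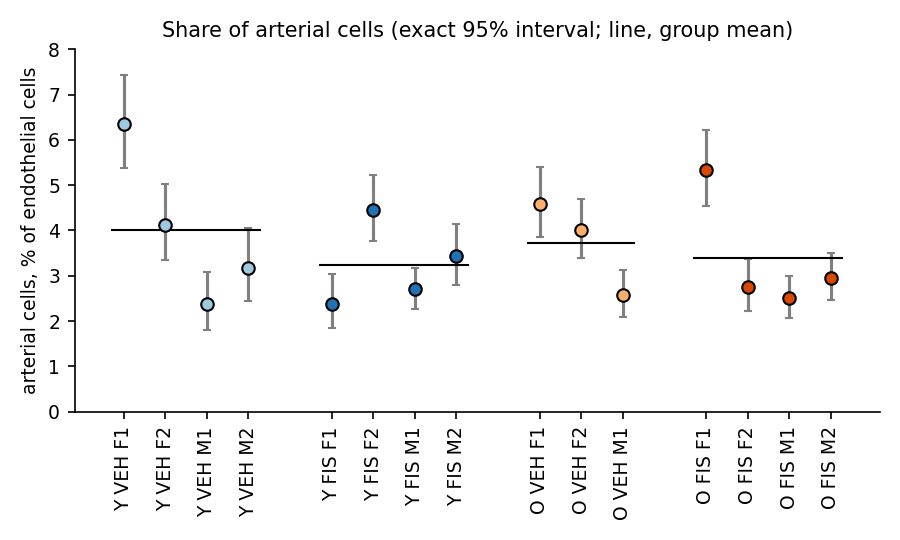
Share of arterial cells among ECs in each library, in percent, by group; points are libraries with their exact 95% binomial interval and lines are group means. The 4 groups overlap, with means of 4.01%, 3.24%, 3.72% and 3.38%.

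The contrast with the most calls in arterial cells was that of age over both treatments. Counts were summed per library, and a gene was called at an adjusted p under 0.05 in the quasi-likelihood test of edgeR with a log2 change beyond 0.25 and a UMI in over 10% of arterial cells of either group. Comparing the 7 old with the 8 young libraries over both treatments, 79 of 6870 genes were called (1.15%), 48 higher (0.699% of genes) and 31 lower (0.451%) in old mice. The genes that rose included Olfm2, lipoprotein lipase, xanthine dehydrogenase and Cxcl12, and those that fell included clusterin and the fibulins Fbln5 and Fbln2. For 20 of the 79, no old library overlapped a young one, against 0.349% of all genes. These p-values measure the spread between pooled libraries.

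Olfm2, a secreted olfactomedin-domain protein, lies on chromosome 9 (20578986 to 20657645, GRCm39, minus strand). It was at 14.7, 17.9, 5.47 and 5.55 CPM in Y VEH F1, F2, M1 and M2, at 10.0, 10.5, 16.8 and 6.60 CPM in Y FIS F1, F2, M1 and M2, at 55.8, 49.1 and 43.8 CPM in O VEH F1, F2 and M1, and at 63.3, 45.5, 23.9 and 24.8 CPM in O FIS F1, F2, M1 and M2. Every old library was above every young one. The log2 change with age was 1.91 ± 0.234 (SE, adjusted p = 5.43e-05). The lowest young values rest on very few UMIs, as the arterial sums of Y VEH M1 and M2 held 365365 and 360377 UMIs. At most 14.9% of the arterial cells of either age had a UMI of Olfm2.

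Lpl, which hydrolyses the triglycerides of lipoproteins at the vessel wall, lies on chromosome 8 (69284603 to 69360100, plus strand). Its level was 162, 153, 233 and 172 CPM in Y VEH F1, F2, M1 and M2, 208, 137, 149 and 135 CPM in Y FIS F1, F2, M1 and M2, 446, 323 and 312 CPM in O VEH F1, F2 and M1, and 263, 346, 255 and 292 CPM in O FIS F1, F2, M1 and M2. No old library overlapped a young one, and the lowest, an O FIS male, was at 255 against 233 CPM in the highest young one. The log2 change was 0.94 ± 0.127 (adjusted p = 0.000109). Old arterial cells thus had more of a transcript whose level in capillary cells was 1241 CPM.

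Xdh, xanthine dehydrogenase, an enzyme of purine breakdown and a source of oxidants in its oxidase form, lies on chromosome 17 (74190203 to 74257399, minus strand). It was at 133, 193, 140 and 158 CPM in Y VEH F1, F2, M1 and M2, at 123, 126, 117 and 180 CPM in Y FIS F1, F2, M1 and M2, at 278, 274 and 325 CPM in O VEH F1, F2 and M1, and at 228, 218, 261 and 239 CPM in O FIS F1, F2, M1 and M2. The groups did not overlap between ages. The log2 change was 0.84 ± 0.111 (adjusted p = 9.27e-05).

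Clu, clusterin, a secreted chaperone and one of the arterial genes that the luminal type carries most, lies on chromosome 14 (66190200 to 66218999, plus strand). Its level was 245, 361, 465 and 583 CPM in Y VEH F1, F2, M1 and M2, 430, 315, 305 and 475 CPM in Y FIS F1, F2, M1 and M2, 114, 123 and 164 CPM in O VEH F1, F2 and M1, and 132, 160, 241 and 146 CPM in O FIS F1, F2, M1 and M2. Every old library was below every young one, although O FIS M1 at 241 CPM came close to Y VEH F1. The log2 change was -1.37 ± 0.157 (adjusted p = 0.000109). Clu differed between the sub-clusters described further on, and within sub-cluster 2 alone, the most numerous, its log2 change was -0.45 ± 0.325 (adjusted p = 0.818), and within sub-cluster 4, the next in size, -1.02 ± 0.260 (adjusted p = 0.0632).

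Cxcl12 (chromosome 6, 117144945 to 117158328, plus strand) ranged from 1248 to 2173 CPM with a median of 1485 in young libraries, and from 1905 to 2938 CPM with a median of 2145 in old ones. The ranges overlapped through 1 young library, Y VEH M2, and the log2 change was 0.56 ± 0.112 (adjusted p = 0.0142). In the vehicle mice alone it was 0.43 (adjusted p = 0.40). Its receptor genes Cxcr4 and Ackr3 form a list of 2, of which 1 could be tested and did not pass.

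Chp2, a calcineurin B-like protein (chromosome 7, 121807809 to 121823871, plus strand), was at 93.8 to 175 CPM with a median of 129 in young and at 26.3 to 119 CPM with a median of 51.4 in old libraries. Its log2 change was -1.19 ± 0.150 (adjusted p = 5.43e-05).

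Of the 25 arterial genes outside the rule, 23 could be tested. Cxcl12 rose, Clu, Fbln5, Fbln2 and Crip1 fell, and 18 did not pass, against 0.699% of all genes called higher and 0.451% called lower. The median log2 change over the list was -0.10, against -0.01 for all genes. Over all 6870 genes, 48.1% had a difference above 0 and 51.9% below 0. Fbln5 (chromosome 12, 101712556 to 101785429, minus strand) had a median of 886 CPM in young libraries (819 to 1094) and 667 CPM in old ones (501 to 966), a log2 change of -0.46 ± 0.0973 (adjusted p = 0.0142). Fbln2, a fibulin of elastic fibres and basement membranes, went from a median of 647 CPM (527 to 749) to 439 CPM (385 to 595), a log2 change of -0.45 ± 0.0908 (adjusted p = 0.00799). Crip1, a small LIM-domain protein, had a log2 change of -0.41 ± 0.0970 (adjusted p = 0.0265). Connexin 37 did not pass. Gja4 (chromosome 4, 127205214 to 127207851, minus strand) ranged from 145 to 234 CPM in young and from 89.0 to 322 CPM in old libraries, a log2 difference of 0.14 ± 0.164 (adjusted p = 0.844).

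No Notch ligand, receptor or effector passed. All 4 ligands could be tested, and their differences were small, at -0.11 ± 0.152 for Dll4, -0.10 ± 0.108 for Jag1 and -0.09 for Jag2 on the log2 scale. Of 4 receptors, 2 were tested, Notch1 at 0.07 and Notch4 at -0.05, and of 15 effectors and targets, 10. Nrarp, a Notch-induced feedback inhibitor, was the nearest to the threshold, at 67.6 to 238 CPM in young and 51.8 to 96.3 CPM in old libraries (log2 difference -0.89 ± 0.212, adjusted p = 0.0573). Of 21 tested transcription factors of ECs, 1 was called, against 0.699% of all genes called higher. It was Meox1, a mesodermal homeobox factor, which rose by 0.79 ± 0.171 (adjusted p = 0.0158).

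Of the 10 capillary markers outside the rule that could be tested, 3 rose (against 0.699% of all genes), none fell and 9 had a difference above 0 (against 48.1% of all genes), with a median of 0.29. Lpl was 1 of them. Btnl9, a butyrophilin-like surface protein, was at 433 to 635 CPM with a median of 495 in young and at 556 to 1279 CPM with a median of 907 in old libraries (log2 change 0.72 ± 0.124, adjusted p = 0.00426). Cd300lg, a capillary receptor that binds lymphocytes, went from a median of 507 to 743 CPM (log2 change 0.52 ± 0.0943, adjusted p = 0.00377). Over all 79 genes, 31 of the 48 that rose (64.6%) were higher in capillary than in arterial cells, as was 1 of the 31 that fell (3.23%), against 42.1% of all genes. The 5 capillary genes of the rule, which limit who is a member, summed to 1649 to 2675 CPM with a median of 2053 in young and to 2077 to 2569 CPM with a median of 2464 in old libraries, and the 5 arterial genes to medians of 2590 and 2462 CPM. Their part in the result was not tested.

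**Figure D3:**
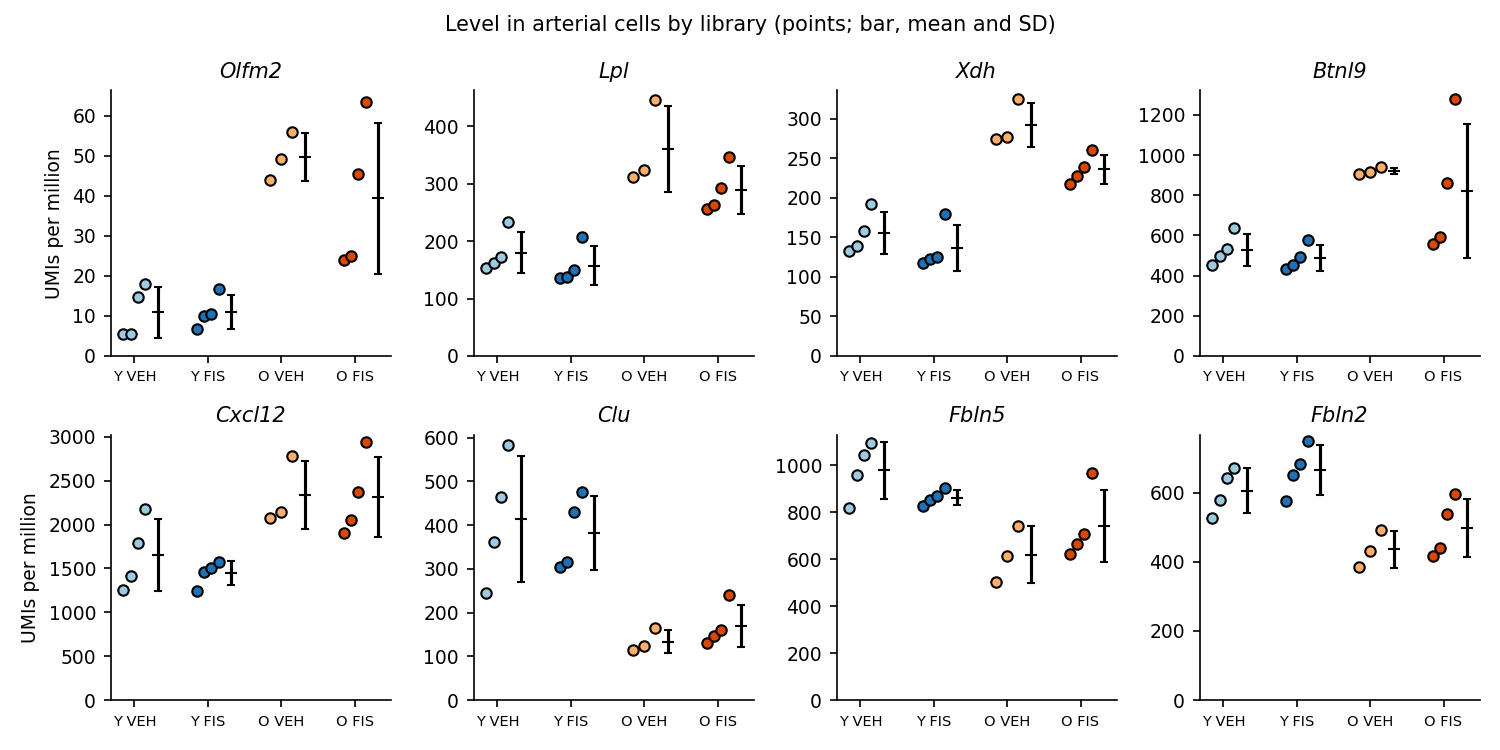
Level of 8 genes in the arterial cells of each library, in CPM, by group; points are libraries, and the bar and whiskers are the mean and SD. Olfm2, Lpl, Xdh, Btnl9 and Cxcl12 are higher, and Clu, Fbln5 and Fbln2 lower, in the 7 old than in the 8 young libraries.

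The other genes with the largest rises among those whose old and young libraries did not overlap are given next with called members of the lists, by role. In lipid and ether-lipid metabolism, Agmo, which cleaves ether lipids, went from a median of 64.7 CPM (30.1 to 108) to 131 CPM (111 to 185), a log2 change of 1.04 ± 0.159 (adjusted p = 0.000869). Of 11 lipid handling genes tested, 2 rose, against 0.699% of all genes, and none fell. Cpm, carboxypeptidase M, a membrane peptidase, rose from a median of 38.3 to 80.4 CPM (1.22 ± 0.197, adjusted p = 0.00183), and Pth1r, the receptor for parathyroid hormone and its related peptide, from 66.1 to 122 CPM (0.93 ± 0.141, adjusted p = 0.00047). Prkcz, an atypical protein kinase C of cell polarity, rose by 1.27 ± 0.236 (adjusted p = 0.00453). Ubd, a ubiquitin-like protein induced by inflammatory cytokines, was at 0 to 15.1 CPM in young and 17.8 to 66.1 CPM in old libraries (1.97 ± 0.392, adjusted p = 0.0207). Dcbld1, a membrane protein, rose by 0.79 (adjusted p = 0.0215), and Cplane1, a ciliary protein, by 0.63 (adjusted p = 0.0469).

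In the BMP and TGF-beta pathway, 2 of 21 tested genes rose, against 0.699% of all genes, and none fell. Smad6, an inhibitor of BMP signalling that is itself induced by it, had a median of 124 CPM in young (87.6 to 151) and 210 CPM in old libraries (141 to 345), and rose by 0.80 ± 0.143 (adjusted p = 0.00426). Eng, endoglin, the co-receptor for BMP9 on ECs, went from 727 CPM (585 to 938) to 1014 CPM (834 to 1235), a rise of 0.46 ± 0.0896 (adjusted p = 0.00684). The median over the 21 genes was 0.07.

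Elastic fibre and basement membrane genes went both ways. Of 20 tested, 2 rose and 2 fell, against 0.699% and 0.451% of all genes. The fibulins fell, as above. Hspg2, perlecan, a proteoglycan of the basement membrane, rose from a median of 185 to 279 CPM (0.66 ± 0.129, adjusted p = 0.00743), and Lama4, the laminin chain of endothelial basement membranes, from 93.9 to 152 CPM (0.61 ± 0.124, adjusted p = 0.00890).

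Of the 23 class I antigen presentation genes tested, 3 rose, none fell and 20 had a difference above 0, with a median of 0.25, against 0.699% of all genes called higher and 48.1% above 0. H2-K1 went from a median of 1577 CPM (1324 to 1984) to 2059 CPM (1749 to 2552), a rise of 0.40 ± 0.0908 (adjusted p = 0.0226). H2-Q7 rose by 0.65 ± 0.133 (adjusted p = 0.0142) and H2-Q6 by 0.55 ± 0.132 (adjusted p = 0.0310). Genes of this family share sequence, so reads may be split between them. H2-D1 (0.12, adjusted p = 0.659) and B2m (0.12, adjusted p = 0.699) did not pass. None of 37 tested interferon response genes was called, and their median was -0.07. Ifi27l2a, an interferon-inducible gene, is named for its fall, at -0.77 (adjusted p = 0.0192).

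Of the 16 senescence and secreted factors that the study named, 4 could be tested. Among these 1, Cxcl12, was called higher, against 0.699% of all genes. That list was chosen on these samples and is no independent evidence of its direction. Of 17 other senescence-linked genes tested, 1 fell, against 0.451% of all genes. It was Igfbp4, a binding protein of insulin-like growth factors (-0.74 ± 0.152, adjusted p = 0.00936). Ccnd2, cyclin D2, the only one called of 5 cell cycle genes tested, fell by 0.44 on the log2 scale (adjusted p = 0.0338), against 0.451% of all genes called lower. None of 16 vasomotor genes tested was called. Nos3, endothelial nitric oxide synthase, was at 98.7 to 144 CPM in young and 79.0 to 148 CPM in old libraries (log2 difference -0.14 ± 0.135, adjusted p = 0.780), and Edn1 differed by -0.03. None of the 9 leukocyte adhesion genes, 14 redox genes or 8 genes of VEGF and angiopoietin signalling tested was called. Of 19 axon guidance genes tested, Efnb1, ephrin-B1, rose (0.56 ± 0.137, adjusted p = 0.0429), against 0.699% of all genes called higher.

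Among the other genes that fell, Ptprr, a tyrosine phosphatase, went from a median of 201 to 129 CPM (-0.64, adjusted p = 0.00788), Tmem47 fell by 0.62 (adjusted p = 0.0260) and Atox1, a copper chaperone, by 0.39 (adjusted p = 0.0192) on the log2 scale. Gm19951, a gene model, changed by -1.60 (adjusted p = 0.00660). Ctsh, cathepsin H, changed by -1.28 (adjusted p = 0.0339), and was at 932 CPM in luminal-type and 26.9 CPM in arterial cells. Its change was -1.97 (adjusted p = 0.000143) without O VEH F2 and -1.02 (adjusted p = 0.0233) without O VEH F1, and with at least 4 arterial markers asked of a cell it was -0.82 (adjusted p = 0.426).

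Some of the falls were not particular to arterial cells. Cmss1 went from a median of 5458 CPM (4071 to 6273) to 2009 CPM (1255 to 3727), a log2 change of -1.19 ± 0.139 (adjusted p = 0.000541), and changed by -1.18 in capillary, -1.09 in luminal-type and -1.09 in venous-type cells. Cdk8 (-1.27 ± 0.150), Lars2 (-0.91 ± 0.134) and Camk1d (-0.91 ± 0.148) fell with it in arterial cells. Lars2 encodes a mitochondrial tRNA synthetase and Cdk8 a kinase of the Mediator complex. These 4 were the members tested of a list of 5 RNAs taken from an earlier analysis of these data, so their fall is not independent evidence.

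Markers of other cells were also read, and the sums given here overlapped between young and old libraries. Fibroblast markers summed to 400 to 1462 CPM (median 679) in young and to 271 to 836 CPM (median 418) in old arterial cells. Of 7 such genes tested all were below 0, against 51.9% of all genes. Among them 1, Pi16, was called (-1.08 ± 0.242, adjusted p = 0.0295), against 0.451% of all genes called lower. Smooth muscle and pericyte markers summed to 658 to 2075 CPM in young and 480 to 1790 CPM in old libraries. All 6 tested genes lay below 0, against 51.9% of all genes, and none was called. B cell markers summed to 39.1 to 430 CPM in young and 107 to 1888 CPM in old libraries, and erythrocyte markers to 26.4 to 229 and 119 to 424 CPM. Col1a1, Lum, Pdgfra and Ptprc are limited or at 0 by the rule. Luminal-type markers summed to 398 to 910 CPM with a median of 630 in young and to 314 to 489 CPM with a median of 349 in old libraries, which moved in the direction of Clu, itself in that list. The part of these levels in the age contrast was not tested.

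Of 24 immediate early and heat shock genes tested, which respond to handling and digestion, none was called, 22 lay below 0, against 51.9% of all genes, and the median was -0.34 in old against young libraries.

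Single libraries decided some of these calls. Olfm2, Lpl, Xdh, Clu, Chp2, Cxcl12, Fbln2, Btnl9 and Cd300lg passed in each of the 15 fits that left out 1 library. Fbln5 missed the threshold without O VEH F2 (adjusted p = 0.0501), Ubd without Y VEH F1, Y VEH F2 or Y FIS M2 (up to 0.0608), Dcbld1 without Y VEH F1, O FIS F1 or O VEH F1 (up to 0.0727) and Ifi27l2a without O FIS M2, O FIS F1 or O VEH F1 (up to 0.0688). The call ended in 6 of 15 such fits for H2-K1 (up to 0.0636) and Atox1 (up to 0.0929), in 7 for Crip1 (up to 0.0862), in 8 for H2-Q6 and Pi16, in 9 for Tmem47, in 10 for Efnb1, in 11 for Ccnd2 and in 12 for Cplane1 and Ctsh. Every one of these genes kept its sign in all such fits that tested it, which were 13 of the 15 for Ubd and all 15 for the others. Without the term for sex, Igfbp4 (adjusted p = 0.297), H2-Q6 (0.217), Meox1 (0.0924), Ifi27l2a (0.0848) and Chp2 (0.0566) did not pass in the age contrast.

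The age contrast was also read in vehicle and fisetin mice apart, which share no library. In O VEH against Y VEH, 16 of 7098 genes were called (0.225%), 6 higher (0.0845%) and 10 lower (0.141%), and in O FIS against Y FIS 13 of 6810 (0.191%), 10 higher (0.147%) and 3 lower (0.0441%). Chp2, Lpl, Olfm2, Clu and Xdh were called in both, 5 genes that make up 31.2% of the first and 38.5% of the second list. All 16 genes of the first list had the same sign in the second contrast, and 12 of 13 the other way round, against 56.6% of 6638 genes tested in both. The groups did not overlap for 16 of the 16 genes in vehicle mice (8.99% of all genes) and for 11 of the 13 in fisetin mice (4.21%). The log2 changes in vehicle and fisetin mice were 1.98 ± 0.338 and 1.84 ± 0.324 for Olfm2, 0.96 and 0.91 for Lpl, 0.88 and 0.80 for Xdh, -1.56 and -1.18 for Clu, and -1.33 and -1.05 for Chp2.

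Beyond these 5, the vehicle contrast called St8sia4, Agmo and Fam117b higher and Il31ra, Cmss1, Cdk8, Tmem158, Rgs10, Camk1d, Lars2 and Fbln5 lower. Fbln5 had a log2 change of -0.69 ± 0.144 (adjusted p = 0.0286) in vehicle mice and -0.22 (adjusted p = 0.860) in fisetin mice. The fisetin contrast called Cpm, Meox1, Pth1r, Smad6, Cd300lg, Eng and Mgll higher and Ifi27l2a lower, with Meox1 at 1.30 (adjusted p = 0.0135) against 0.27 in vehicle mice. The direct test of such a difference, the interaction of age with fisetin, called none of 7270 genes (0%; 309 had an unadjusted p under 0.05, and DESeq2 called 0 as well), so an age change in 1 treatment only was not shown for any gene. The count in fisetin mice depended on single libraries, at 0 without Y FIS F2 or without O FIS F1 and 26 without O VEH F1, and that in vehicle mice was 9 without Y VEH F1 and 30 without Y VEH M2. Without the term for sex, Chp2 did not pass in vehicle (adjusted p = 0.297) or fisetin mice (adjusted p = 0.529). In vehicle mice the calls of Olfm2, Clu and Chp2 held in each fit that left out 1 library, that of Lpl ended without Y VEH F1, Y VEH F2 or O VEH F1 (adjusted p up to 0.123), that of Xdh without Y VEH F1 or O VEH M1 (up to 0.0797) and that of Fbln5 in 5 of 15 fits (up to 0.195). Of the other vehicle calls, that of Tmem158 ended in 11 of the 15 fits (up to 0.161), that of St8sia4 in 8 (up to 0.183), that of Camk1d in 7 (up to 0.132), those of Fam117b and Rgs10 in 3 and those of Agmo, Il31ra and Lars2 in 2.

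In fisetin mice the calls of Cpm and Mgll ended in 10 of the 15 fits (up to 0.177 and 0.202), that of Smad6 in 9 (up to 0.202), that of Lpl in 6, that of Clu in 5, those of Eng and Xdh in 4 and that of Pth1r in 3. Those of Chp2, Olfm2, Meox1, Cd300lg and Ifi27l2a ended without Y FIS F2 or O FIS F1 (up to 0.160).

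Fisetin itself gave no call in arterial cells. In O FIS against O VEH, 0 of 6990 genes passed in edgeR (0%) and 0 in DESeq2, with 332 at an unadjusted p under 0.05 and the lowest adjusted p at 0.998, and 2 passed without O VEH F1. In Y FIS against Y VEH, 0 of 6888 passed (0%) in edgeR and 1 in DESeq2, with 272 at an unadjusted p under 0.05, and 1 passed without Y VEH M2. Simulated counts at this size recovered 0.5% of genes changed by 0.5 on the log2 scale in O FIS against O VEH, 51% of those changed by 1 and 92% of those changed by 2, so that with these libraries few differences of 0.5 would have been called.

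For the age genes, the differences between O FIS and O VEH had wide intervals. Cxcl12 stood at 2783, 2145 and 2080 CPM in O VEH F1, F2 and M1 and at 2938, 2366, 2047 and 1905 CPM in O FIS F1, F2, M1 and M2. The groups overlapped, with a log2 difference of 0.03 (95% interval -0.31 to 0.37). The difference was -0.28 for Lpl (-0.64 to 0.09), -0.30 for Xdh (-0.62 to 0.02), 0.29 for Clu (-0.21 to 0.79), -0.20 for Olfm2 (-0.75 to 0.35) and 0.27 for Fbln5 (-0.03 to 0.56), with an adjusted p of 0.998 for each. Fam117b was at 158, 335 and 172 CPM in O VEH F1, F2 and M1 and at 132, 133, 105 and 120 CPM in O FIS F1, F2, M1 and M2, so the groups did not overlap, but 5.58% of all genes shared that pattern. Its log2 difference was -0.77 (-1.18 to -0.36, adjusted p = 0.998). The high value was that of O VEH F2, the library that alone held sub-cluster 6, described further on, where Fam117b stood at 838 CPM against 42.2 to 155 CPM in the other sub-clusters. Its call in vehicle mice ended without O VEH F2, Y VEH F1 or Y VEH M1 (adjusted p up to 0.182). The genes of this paragraph were chosen by age contrasts that used the same O VEH libraries. Their differences between O FIS and O VEH, and the intervals, are therefore no independent evidence of a direction.

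Of 35 gene lists read in each fisetin contrast, 4 are given here, chosen after their values were seen. In old mice, 30 of 38 interferon genes tested had a difference below 0 with fisetin (median -0.19), against 50.1% of all genes, and 21 of 22 immediate early genes one above 0 (median 0.29), against 49.9% of all genes. The median over all genes was near 0, and no gene was called in either list. In young mice all 11 lipid handling genes tested lay below 0 (median -0.20), as did 13 of 14 redox genes (median -0.15), against 51.7% of all genes, again with none called. O FIS against Y VEH called 3 of 6878 genes (0.0436%), 2 higher (0.0291%) and 1 lower (0.0145%), none with overlapping groups (3.98% of all genes had none): Olfm2 (log2 change 1.79), Agmo (1.45) and Clu (-1.27). Of the 15 fits that left out 1 library, the call of Clu ended in 9 (adjusted p up to 0.136), that of Olfm2 in 8 (up to 0.218) and that of Agmo in 3 (up to 0.0681). That count went from 0 without Y VEH F2, Y VEH M2 or O FIS M2 to 11 without O VEH F2.

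Male against female libraries called 15 of 6852 genes (0.219%), 9 higher (0.131%) and 6 lower (0.0876%) in males, and 7 with no overlap between the sexes (0.19% of all genes). They included the Y-linked Uty, Eif2s3y and Ddx3y, and Xist and Eif2s3x, which carry the opposite sign, so the sex labels matched the libraries as groups. Nr1d2, a clock gene, and Cenpb were among the autosomal genes higher in males. Nr1d2 passed in each of the 15 fits that left out 1 library, whereas the call of Cenpb ended in 12 (adjusted p up to 0.168).

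Whether arterial cells aged differently from capillary cells was tested within libraries, with the library as a block. The age change differed in 36 of 6963 genes (0.517%), being more positive in arterial cells in 24 (0.345%) and more negative in 12 (0.172%). St8sia4, a polysialyltransferase (chromosome 1, 95515404 to 95595355, minus strand), had a median of 47.8 CPM in young (23.8 to 79.2) and 93.2 CPM in old arterial cells (53.4 to 133). It changed by 1.05 ± 0.203 in arterial cells and by 0.05 in capillary cells, a difference of 1.00 ± 0.142 (adjusted p = 9.74e-06). Xdh changed by 0.84 and 0.21, a difference of 0.63 ± 0.111 (adjusted p = 0.00182). Ctla2a, an inhibitor of cathepsin-like proteases, differed by 0.86 ± 0.108 (adjusted p = 3.25e-06), although in arterial cells alone its change of 0.88 had an adjusted p of 0.0559.

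Stab1, a scavenger receptor, differed by 0.82 ± 0.177 (adjusted p = 0.0148), and in arterial cells alone was at 0.59 (adjusted p = 0.102). On the negative side stood Emp2, a tetraspan membrane protein, at -1.52 ± 0.227 (adjusted p = 2.35e-05), with values of -0.15 in arterial and 1.29 in capillary cells. Tspo, the mitochondrial translocator protein, changed by -0.50 in arterial cells (438 to 601 CPM in young, 340 to 441 CPM in old libraries) and by 0.06 in capillary cells, a difference of -0.55 ± 0.0839 (adjusted p = 4.39e-05). The list genes called in this test were Cxcl12 (0.31), Nrp2 (0.71), Btnl9 (0.49), Col4a1 (0.36) and Hspg2 (0.55) on the positive side and Nrarp (-0.59), Tm4sf1 (-0.34), Ccnd2 (-0.51) and Fosb (-0.74) on the negative one. Leaving out any of 10 single libraries ended the call of Cxcl12 (adjusted p up to 0.287), 5 those of Col4a1, Nrarp and Fosb, 7 that of Nrp2, 8 that of Tm4sf1, and Y VEH F1, Y FIS F2, O FIS F1 or O VEH F1 that of Stab1 (up to 0.106). The count fell to 17 without O FIS F1, 20 without Y VEH F2, 22 without Y VEH F1 or Y FIS F2 and 23 without O FIS M1.

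The age change of the 79 genes was also read in the other classes of the same libraries, which are not independent of the arterial sums. The genes were chosen by their values in arterial cells. A smaller size and fewer passes in another class are therefore no evidence that age changed arterial cells more. In capillary cells 77 of 79 had the same sign (97.5%, against 64.7% of all 6870 genes), with a median size of 0.32 against 0.721 in arterial cells, and 23 passed an adjusted p of 0.05 there (29.1%, against 1.43% of all genes). In luminal-type cells 60 of 76 had the same sign (78.9%, against 59.2%) and 12 passed (15.8%, against 1.16%). In venous-type cells 73 of 78 had the same sign (93.6%, against 63.0%) and 28 passed (35.9%, against 1.18%). Clu, for example, changed by -1.37 in arterial and by 0.12 in luminal-type cells, and Lpl by 0.91 in venous-type cells. The fisetin contrast in old mice did not differ between arterial and capillary cells for any of 7073 genes (0% in edgeR, with 307 at an unadjusted p under 0.05), and in 5.82% of genes the difference between the classes did not overlap between the groups.

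**Figure D4:**
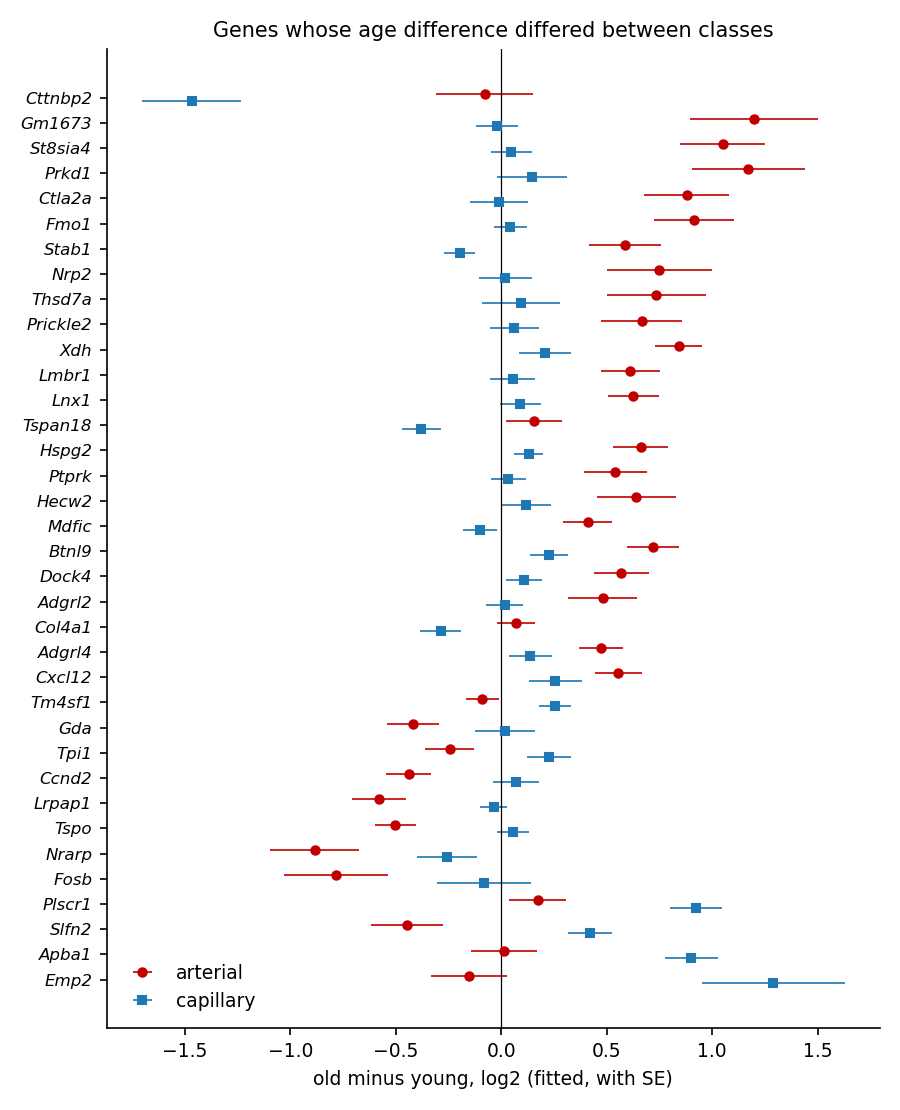
Log2 change with age in arterial (red circles) and capillary (blue squares) cells for the 36 genes whose age change differed between them, with the standard error. St8sia4, Ctla2a and Xdh lie further right in arterial cells, and Emp2 (-0.15 against 1.29) and Tspo (-0.50 against 0.06) further left.

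The arterial cells were not uniform. Clustered without the genes of the rule, sex-linked genes and genes with an unadjusted age p under 0.05, 1286 genes in all, they fell into 6 sub-clusters, of which 5 held cells of all 15 libraries. They are numbered here and given no cell type name. Sub-cluster 2 held 740 cells (44.6%) and was led, by ratio to the others, by the interferon-induced chemokine gene Cxcl9 (79.3 against 6.11 CPM). Sub-cluster 4 held 464 cells (28.0%) and was led by Cd79a (40.1 against 4.65 CPM), Kcna5, Cyp1a1 and Plac8, with Rbp7, a retinol-binding protein, at 3112 against 1200 CPM. The B cell genes Cd79a, Cd79b, Ms4a1 and Bank1 were all among its 15 leading genes, at 22.04 to 40.1 CPM. Sub-cluster 1 (129 cells, 7.77%) was led by Cytl1, Efna5, Ptprj and Gkn3, and had Mgp at 3318 CPM and the fewest capillary markers per cell, 1.53 of 5. Sub-cluster 3 (175 cells, 10.5%) was led by Camk4, Ank3, Ssu2 and S100a4. Sub-cluster 5 (136 cells, 8.19%) was led by Postn, Notch3, Abcc9, Kcnq5, Steap4, Rgs6 and Pdgfrb, of which Notch3, Abcc9 and Pdgfrb are known from mural cells, and held 5 of the 10 marked doublets at the lowest median depth of 3518 UMIs. Sub-cluster 6 held 16 cells, all of O VEH F2, where they made up 10.96% of the arterial cells. They carried Stmn2 at 46.2 CPM and no Clu, and were led by Gm35533, Esm1, Epha6 and Meis2.

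The age genes, which had not built the clusters, differed between them. Clu was at 1122 CPM in sub-cluster 1, 570 in sub-cluster 3, and 104, 156 and 136 CPM in sub-clusters 2, 4 and 5. Lpl was low in sub-clusters 1 and 3, at 34.1 and 42.2 CPM, and stood at 306, 297 and 278 CPM in sub-clusters 2, 4 and 5. Xdh was at 67.0 and 62.3 CPM in sub-clusters 1 and 3 and at 286 and 184 CPM in 2 and 4. In sub-cluster 6 Clu was at 0, Lpl at 46.2 CPM and Xdh at 224 CPM. Gja4 was at 343 CPM in sub-cluster 1, 233 in sub-cluster 3 and 166 and 168 CPM in sub-clusters 2 and 4, without being called for age.

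Sub-cluster 1 held 4.23% to 18.2% of the arterial cells in Y VEH libraries (median 7.91%), 7.97% to 13.9% in Y FIS (median 11.1%), 2.08% to 7.53% in O VEH (median 3.01%) and 5.60% to 11.2% in O FIS (median 5.98%). Sub-cluster 3 held a median of 10.9% in Y VEH, 6.85% in O VEH, 13.5% in Y FIS and 9.99% in O FIS. Sub-cluster 2 had medians of 42.8%, 58.3%, 38.0% and 47.8% in the same order. The ranges overlapped between all groups in sub-cluster 1 except between Y FIS and O VEH. Sub-cluster 4 held a median of 29.0% in Y VEH, 21.9% in O VEH, 25.6% in Y FIS and 25.4% in O FIS. Sub-cluster 5, with the mural genes, held 4.76% to 7.27% in Y VEH (median 6.33%), 3.12% to 6.85% in O VEH (median 6.77%), 6.35% to 11.1% in Y FIS (median 8.47%) and 7.24% to 13.8% in O FIS (median 11.2%). Its O FIS libraries thus all lay above the O VEH libraries. These shares were not tested.

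Within a single sub-cluster the age changes kept their direction. In sub-cluster 2 alone, 78 of the 78 age genes fitted there had the same sign as in all arterial cells, 68 had an unadjusted p under 0.05, 31 had an adjusted p under 0.05 and the median size was 0.626, against 0.716 in all cells. In sub-cluster 4 alone, 64 of 64 had the same sign, 49 an unadjusted p under 0.05 and 19 an adjusted one. Sub-cluster 4 held the B cell transcripts given above, whose sums were higher in some old libraries, and their part in its values was not tested. Since the genes were chosen on the same cells, neither their direction, nor their size, nor the number that passed is independent evidence. The shares over all genes fitted in these sub-clusters were not computed. Olfm2 changed by 2.15 (adjusted p = 0.000894) and 2.63 (adjusted p = 0.000427) in sub-clusters 2 and 4, Xdh by 0.63 (adjusted p = 0.0204) and 0.85 (adjusted p = 0.0390), and Btnl9 by 0.68 (adjusted p = 0.00126) and 0.61 (adjusted p = 0.0415). Chp2 changed by -1.17 (adjusted p = 0.00102) and -1.46 (adjusted p = 0.00952).

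Other genes did not pass in 1 or both of the sub-clusters. Lpl was at 0.83 ± 0.203 (adjusted p = 0.0855) in sub-cluster 2 and at 1.15 ± 0.189 (adjusted p = 0.000595) in sub-cluster 4. Cxcl12 was at 0.48 (adjusted p = 0.0472) and 0.49 (adjusted p = 0.561), and Fbln5 at -0.38 (adjusted p = 0.174) and -0.35 (adjusted p = 0.398). Clu, as given above, passed in neither. Without the mural-gene sub-cluster 5 the age contrast called 100 genes in place of 79, and without the 16 cells of sub-cluster 6 it called 94, both settings chosen after seeing the data. Of all calls within arterial cells over all contrasts, named here or not, 10 were lost in the first and 7 in the second setting.

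**Figure D5:**
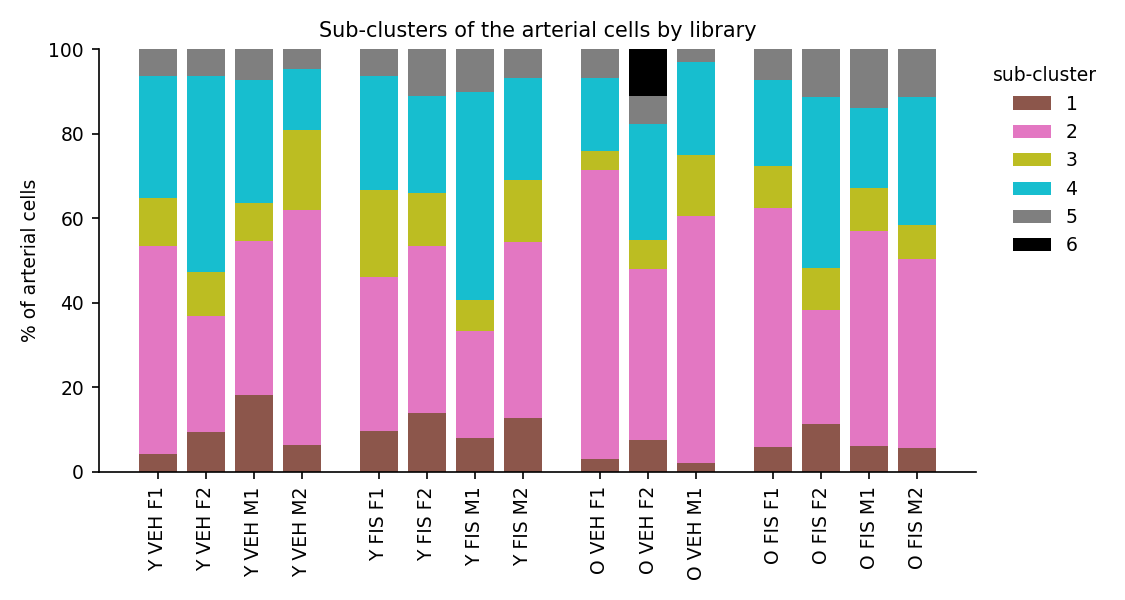
Percent of the arterial cells of each library in each of the 6 sub-clusters, stacked to 100%. Sub-clusters 2 and 4 hold most cells in every library, and sub-cluster 6 appears in O VEH F2 alone, at 10.96%.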

How the data were processed

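Aortic cells were captured as 10x Genomics 3′ single-cell libraries, and the authors used Cell Ranger 8.0.1 to align the reads to GRCm39 and to tally UMIs for each gene in each barcode. The deposited matrices hold these counts, unnormalised, and nothing else was used. Cells were filtered and chosen by the stated rule, and raw counts of the chosen cells were summed per library. The gate for all ECs was the same rule without its Vwf, arterial and capillary criteria.

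The sums of all 15 libraries were fitted in edgeR 4.0.16 (TMM scaling, filterByExpr, robust quasi-likelihood F test, 1 term per group and a term for sex), with Benjamini-Hochberg adjustment over all 8223 genes fitted. Genes of the rule stayed in the adjustment and out of all counts. Standard errors are the log2 change over the square root of F. The arterial and capillary sums were compared in 1 fit of 13003 genes with the library as a block, cell type, and cell type by group and by sex. Levels are plain CPM without TMM, whose factors were 0.956 to 1.025. Simulated counts with known changes were recovered at 78.5% for a log2 change of 1 in the contrast of old against young, and at 16% for one of 0.5. In O VEH against Y VEH these values were 55.5% and 0.5%. Recovery was scored by adjusted p and log2 change alone, over all genes fitted. Sub-clusters came from Leiden clustering in scanpy 1.11.5 (1500 variable genes, 15 components, 20 neighbours, resolution 0.4). Doublets were scored with Scrublet and kept in the data. Shares were compared with exact permutation tests in scipy 1.17.1.

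Alternatives were DESeq2 1.42.0 (its size factors and its Wald test), no filter on low counts, at least 4 arterial markers, doublets removed, no sex term, the libraries of the 2 groups alone, a replicate block and each library left out. The members and the gene lists were chosen with earlier results of these data known. Named genes were up to 10 called genes with the largest increase and up to 10 with the largest decrease per contrast among those whose groups did not overlap, the called members of the gene lists and the list members with the highest levels. Nebl, Vegfc, Col8a1, Fbln5, Nrarp and the leading genes of the sub-clusters were named after their values were seen. Coordinates come from GENCODE vM39 on GRCm39, matched by Ensembl identifier, and are not from the annotation release used for counting. No sequences are printed.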

Additional observations from a re-analysis of the deposited data

Results flagged for a closer look

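In 5 sets of values a library lay far from the others of its group by Dixon's test, of 111 sets tested, where chance alone gives about 1 in 20. The share of arterial cells in O FIS F1 was 5.333%, and the next highest O FIS library stood at 2.95%. Xdh was at 179.9 CPM in Y FIS M2, with the next at 125.5 CPM, and St8sia4 at 53.42 CPM in O FIS F2, with the next lowest at 92.56 CPM. Fam117b was at 139 CPM in Y VEH F2 (next 89.79 CPM), and Prkcz at 16.76 CPM in Y FIS M1 (next 15.11 CPM), a small gap in a narrow group.

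The age change of 36 genes differed between arterial and capillary cells of the same libraries in the interaction test of edgeR. The 6 given here are those whose old and young libraries also did not overlap in the arterial to capillary ratio. Of all 6963 genes, 12 (0.172%) had no such overlap. The difference was 1.001 for St8sia4, 0.8593 for Ctla2a, 0.8159 for Stab1 and 0.6281 for Xdh on the log2 scale, more positive in arterial cells, and -1.523 for Emp2 and -0.5454 for Tspo, more negative in arterial cells. Emp2 was itself not called in arterial cells alone.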

How the results depend on the processing

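No share comparison passed 0.05 in any setting. The permutation tests say nothing on stability for O VEH against Y VEH and O FIS against O VEH, where they allow no p under 0.0571. The same holds for Y FIS against Y VEH once 1 library is left out. The settings with edgeR tests on cell counts, with sex or a replicate block, do not have this limit. The difference of O FIS from O VEH ranged from -0.987 to 0.0935 percentage points when single libraries were left out, that of O VEH from Y VEH from -0.832 to 0.488, that of Y FIS from Y VEH from -1.31 to 0.00787 and that of old from young from -0.398 to 0.292. Counts of calls moved more. In the order O VEH against Y VEH, O FIS against Y FIS, old against young, O FIS against O VEH, Y FIS against Y VEH, the interaction, O FIS against Y VEH and male against female, the counts of 16, 13, 79, 0, 0, 0, 3 and 15 became 109, 86, 216, 8, 10, 10, 68 and 94 without the filter on low counts, and the arterial against capillary age difference went from 36 to 84. Without the filter, genes with very few counts enter the fit, but a call still needed a UMI in over 10% of cells. The DESeq2 Wald test gave 25 for O VEH against Y VEH, 25 for O FIS against Y FIS, 1 for Y FIS against Y VEH and 10 for O FIS against Y VEH. Without the sex term, 4 genes were called in O FIS against Y FIS and 1 in O FIS against Y VEH, and with only the libraries of the 2 groups 57 and 18. Sub-cluster 2 alone gave 6, 1 and 44 calls, and sub-cluster 4 alone 6, 3 and 29, for O VEH against Y VEH, O FIS against Y FIS and old against young, in fewer cells and as settings chosen after seeing the data. The cause of these changes, those without the filter included, was not tested.

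The replicate block gave 26 calls in O VEH against Y VEH, 21 in O FIS against Y FIS and 6 in O FIS against Y VEH, and 86 for old against young. Same-numbered libraries did not deviate together, with correlations of -0.292 to 0.11 over 21 pairs (median -0.073) against a median of 0.0612 for the other 63, so the numbers were not taken to pair libraries.

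Leaving out 1 library at a time gave 9 to 30 calls in O VEH against Y VEH, 0 to 26 in O FIS against Y FIS, 56 to 112 for old against young, 0 to 2 in O FIS against O VEH, 0 to 1 in Y FIS against Y VEH, 0 to 1 in the interaction, 0 to 11 in O FIS against Y VEH, 9 to 20 in male against female, 17 to 53 for the arterial against capillary age difference and 0 to 2 for that of fisetin in old mice. No called gene turned its direction in the settings where it was read. Within sub-clusters 2 and 4 alone, only the genes called for age over both treatments were read, where fitted. Of all calls within arterial cells over all contrasts, named here or not, 27 were lost without the sex term, 17 with at least 4 arterial markers, 16 in DESeq2, 11 under the replicate block, 10 without sub-cluster 5, 8 with doublets removed, 7 without sub-cluster 6 and 5 with only the libraries of the 2 groups. These settings did not all read the same number of calls. The calls kept were 84 without the sex term, 106 in DESeq2, 115 under the replicate block and 27 with only the libraries of the 2 groups. Without sub-cluster 5 they were 116, and without sub-cluster 6 they were 119. Of the 36 arterial against capillary age differences, 10 were lost with at least 4 arterial markers and 2 with doublets removed. Depth limits the low genes, since an arterial sum held 360377 to 875587 UMIs per library.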
